A study of Homo sapiens with 6 samples.

Results

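Cells divide only when the cyclin-dependent kinases (CDKs) that drive the cell cycle are switched on, and 10 genes that set this switch at its first step are described here. They are the Cip/Kip inhibitors CDKN1A, CDKN1B and CDKN1C, the INK4 inhibitors CDKN2A, CDKN2B, CDKN2C and CDKN2D, and the D cyclins CCND1, CCND2 and CCND3. The genes were taken by symbol from the 58302 Ensembl genes in the count data, and all 10 symbols were found. Of these, 9 had enough counts to be tested among 15075 genes, and the other one, CCND2, had at most 8 counts in any library.

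D cyclins bind CDK4 and CDK6, and the active kinases phosphorylate the retinoblastoma protein RB1, which then releases E2F transcription factors that switch on genes for DNA replication. INK4 proteins bind CDK4 and CDK6 themselves and keep the D cyclins from activating them. Cip/Kip proteins bind complexes of a cyclin and a CDK, and are best known for blocking the complexes of CDK2 with E and A cyclins. In many epithelial cells, TGF-β acts through Smad proteins to switch on CDKN2B and CDKN1A, whereas c-Myc, recruited by the zinc finger protein Miz-1 (ZBTB17), represses both. The study examined the lncRNA Smyca in relation to Smad and c-Myc signalling and to proliferation, so the question put to these genes was how their mRNA levels differ when Smyca is depleted.

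RNA-seq was performed on 6 libraries from cells labelled MDA-MB-231, an established triple negative breast cancer cell line. In the control group, 3 repeats expressed a control shRNA, and in the Smyca knockdown group, 3 repeats expressed Smyca shRNA #1. No library was treated with TGF-β according to the labels, and only 1 of the study's Smyca shRNAs was sequenced. The study calls the repeats biological, but whether they came from separate infections is not given in the sources used here, so the p-values measure the spread between these libraries, which may be partly technical. The shRNA #1 target is shown because it defines the knockdown group, in lower case with no part singled out.
Smyca shRNA #1 target: gcatagataggtgggtgagtg
This 21-base sequence occurred at 1 site of GRCh38, chr19:13836056-13836076 on the minus strand, in an exon of MIR23AHG, the gene of Smyca. It matched 1 of 252835 GENCODE transcripts, and its longest run shared with any transcript of the 10 genes was 8 bases. MIR23AHG had 405, 317 and 343 counts in control repeats 1, 2 and 3 and 165, 110 and 85 counts in knockdown repeats 1, 2 and 3, so the groups did not overlap and the labels hold for the targeted gene.

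Total counts were between 14999307 and 16501085 per library. Control repeats 1 and 2 were close to each other (Pearson's r = 0.9909 of log2 values across 15068 genes, which are not independent replicates) and apart from control repeat 3, whose r was 0.956 and 0.9647 with them and 0.9721 to 0.9738 with the 3 knockdown repeats. Control repeat 2 had much the same r with the knockdown repeats (0.9707 to 0.9737), and control repeat 1 a lower one (0.9546 to 0.9607). Knockdown repeats 1 and 2 were likewise close (r = 0.9911), and knockdown repeat 3 had an r of 0.9763 and 0.9804 with them. The biological coefficient of variation, which is the spread between libraries beyond counting noise, was 25.2% over both groups, 26.4% among the 3 controls, 21% among the 3 knockdown libraries and 13.5% between control repeats 1 and 2. In control repeat 2 the deposited FPKM (fragments per kilobase of gene, scaled to library size) did not follow from the deposited counts, and only 1.5% of its genes were within 1% of the expected value, against 100% in each other library. Whole reads recovered from that FPKM column (16759253 in all) resembled control repeat 3 (r = 0.9963) more than the counts of control repeat 2 (r = 0.965). Their mean chi-square per gene against control repeat 3 was 2.47, where the closest pair of count libraries had 17.34, so they may be another run of control repeat 3. A fit with these reads would then count that sample as 2 of the 3 controls, and the fit without control repeat 2 stands beside it for CDKN1A, CDKN1C and CCND1. Which of the columns holds control repeat 2 cannot be told apart here, so results are given for its counts and, for each tested member, also with its FPKM reads and without control repeats 1 and 2.

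The data go against the MDA-MB-231 label in several genes, among them the members at 9p21. MDA-MB-231 is known as a mesenchymal line with a homozygous deletion that removes CDKN2A, yet CDKN2A had 5451 to 6759 counts in every library. MTAP, a purine salvage gene that neighbours CDKN2A and is often deleted with it, had 871 to 986 counts. Of 11 neighbouring genes of 9p21, 10 reached 1 normalized CPM in every library. How far the deletion reaches is not given in the sources used here, so the neighbours other than MTAP may lie outside it. All 9 epithelial markers examined reached 1 normalized CPM in every library too, with KRT8 at 66358 to 112201 counts and EPCAM at 3826 to 5248 counts. The 6 mesenchymal markers were also present, and of 7 luminal breast markers ESR1, PGR and FOXA1 had at most 6 counts in each library. The other 4 reached 1 normalized CPM in every library, with XBP1 at 1589 to 2713 counts and TFF3 at 594 to 2650, and the 7 summed to 269.6 to 316 normalized CPM in the control and 200.2 to 346 in the knockdown. The liver markers ALB, AFP, APOA1, APOB, TTR and FGB had at most 6 counts, but the gut and liver factor HNF4A had 1021 to 3064. ERBB2 had 729 to 1161 counts, or 46.7 to 72.2 normalized CPM. Without a reference line, whether that is low for a triple negative line cannot be told, so ERBB2 is not held against the label. SMAD4, which is needed for the TGF-β responses this line is known for, had only 9 to 14 counts. The cells are therefore called by their label only, with this limit, and no other name is given to them.

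None of the 9 tested members passed the study's criteria, which ask for control to be 1.5 times knockdown or more, or 0.66 times or less, with the adjusted p below 0.05. The test was edgeR's quasi-likelihood test, and p-values were adjusted over 15075 genes by the Benjamini-Hochberg method. Among all genes tested, 0.0265% passed (4 genes). MIR23AHG, the gene targeted by the shRNA, did not pass either. Its log2 fold change (control over knockdown) was 1.53 with a standard error of 0.26 (adjusted p = 0.111, edgeR's quasi-likelihood test). In this fit, a gene that did not pass was thus not shown to be unchanged. At an unadjusted p under 0.05, 2 members were higher in the control (CDKN1A and CDKN1C), where 10.4% of all genes tested were, and 1 was lower (CCND1), where 8.74% were. The control and knockdown libraries did not overlap for 2 of the 9 members, CDKN1A and CDKN1C, against 24.8% of all genes tested. DESeq2's Wald test passed CDKN1A and CDKN1C, with adjusted p-values of 0.00399 and 0.001, where 6.16% of the genes with an adjusted p passed. The same 2 members passed in edgeR's test when genes with at least 1 count in all were kept (3.01% of all genes), with adjusted p-values of 0.00196 and 0.000181 after Benjamini-Hochberg adjustment. Without control repeat 3, the members CDKN1A, CDKN1C, CDKN2D and CCND1 passed, where 10.5% of all genes did. Without control repeats 1 and 2, 0 members passed (0.0368% of all genes did) and 0 had an unadjusted p under 0.05 (14.3% of all genes did), with control repeat 3 assumed to vary like the knockdown libraries. The median log2 fold change (control over knockdown throughout) of the 9 members was 0.15, beside 0.04 for all genes tested.

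**Figure D1:**
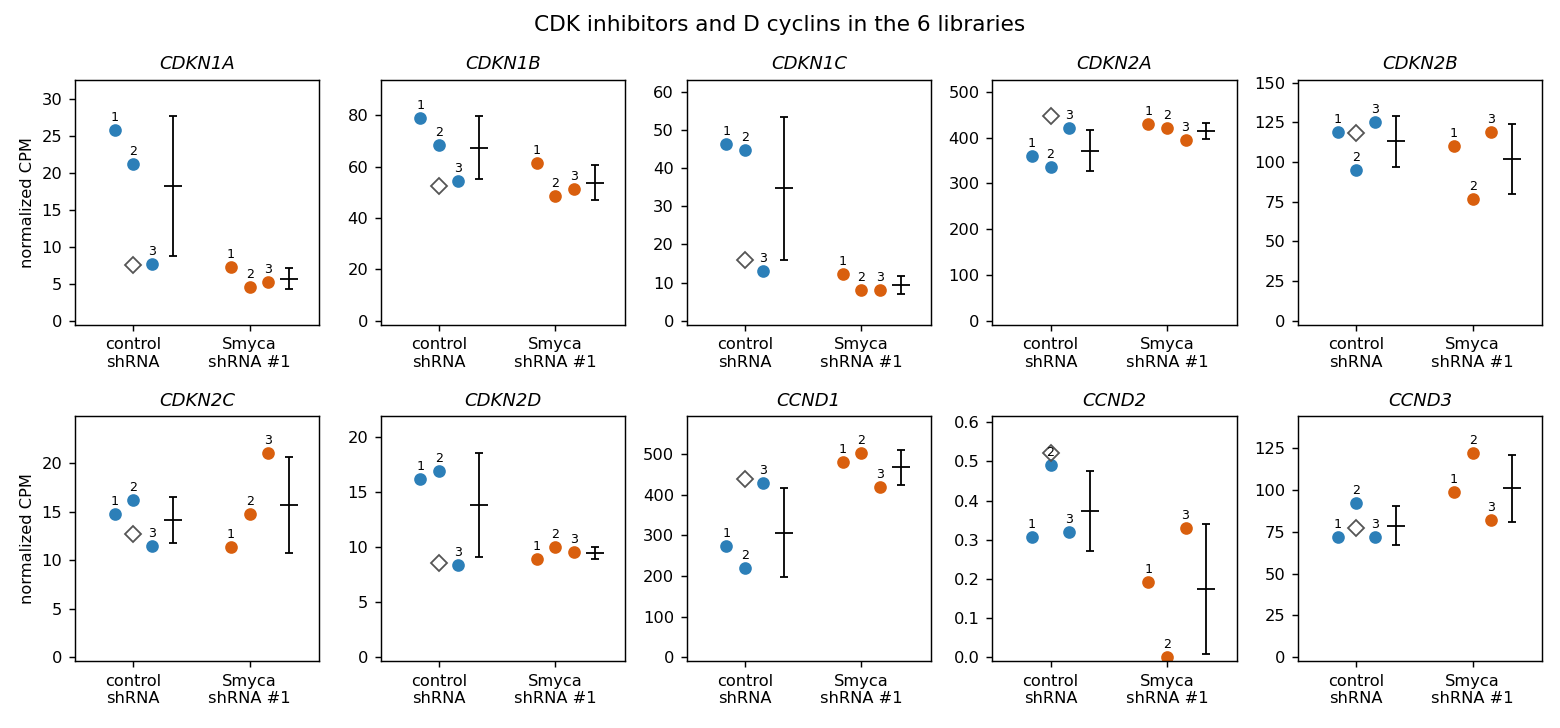
Normalized CPM (vertical axis, linear, from 0) of the 10 genes in the 3 control shRNA libraries (blue) and the 3 Smyca shRNA #1 libraries (orange), with repeat numbers above the points, the mean and SD of each group as a black bar (n = 3) and the FPKM reads of control repeat 2 as an open diamond. For CDKN1A, CDKN1C and CDKN2D, control repeats 1 and 2 lie above the other 4 libraries and the diamond lies near control repeat 3, and for CCND1 control repeats 1 and 2 lie below them.

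CDKN1A encodes p21, an inhibitor that many stress and growth-arrest signals induce. It lies on chr6:36676460-36687337, on the plus strand. Its normalized CPM (counts scaled to library size, with edgeR's TMM factors) was 25.9, 21.2 and 7.62 in control repeats 1, 2 and 3 and 7.24, 4.5 and 5.22 in knockdown repeats 1, 2 and 3, from 71 to 419 counts. The first pair of control repeats stood well above the other 4 libraries, and control repeat 3 was next to knockdown repeat 1. The control mean was 18.2 ± 9.47 and the knockdown mean 5.65 ± 1.42 (SD, n = 3), a fitted log2 fold change of 1.69 with a standard error of 0.43. After Benjamini-Hochberg adjustment, edgeR's quasi-likelihood test gave p = 0.125, and the two-sided exact permutation p was 0.1, the smallest that 3 libraries against 3 allow. Control repeat 1 was 3.39 times control repeat 3, about the 3.22-fold ratio of the groups. With the FPKM reads of control repeat 2 (7.52 normalized CPM) the log2 fold change was 1.26 with a standard error of 0.5, and without control repeat 2 it was 1.56 with a standard error of 0.49. Without control repeats 1 and 2 it was 0.41 with a standard error of 0.38, and without control repeat 3 it was 2.05 with a standard error of 0.24.

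CDKN1C encodes p57, an inhibitor from an imprinted locus that restrains growth in development. It lies on chr11:2883213-2885775, on the minus strand. It had 46.3, 44.9 and 13.1 normalized CPM in control repeats 1, 2 and 3 and 12.2, 8.05 and 8.12 in knockdown repeats 1, 2 and 3. The same pair of control repeats was high as for CDKN1A, and control repeat 3 lay just above knockdown repeat 1. The log2 fold change was 1.88 with a standard error of 0.44 (3.68-fold), with an adjusted p of 0.117 in edgeR's quasi-likelihood test and an exact permutation p of 0.1. Control repeats 1 and 2 were 3.53 and 3.42 times control repeat 3. The log2 fold change was 1.39 with the FPKM reads of control repeat 2, 1.65 without control repeat 2, 0.45 without control repeats 1 and 2, and 2.26 without control repeat 3.

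CDKN1B encodes p27, whose protein level is mostly set by its degradation through the ubiquitin ligase subunit SKP2. It lies on chr12:12685498-12722369, on the plus strand. It had 78.9, 68.4 and 54.5 normalized CPM in control repeats 1, 2 and 3 and 61.5, 48.4 and 51.2 in knockdown repeats 1, 2 and 3. The groups overlapped, with knockdown repeat 1 above control repeat 3. Its log2 fold change of 0.32 with a standard error of 0.18 did not pass the test (adjusted p = 0.355, edgeR's quasi-likelihood test) and was 0.19 with the FPKM reads of control repeat 2 and -0.0047 without control repeats 1 and 2. All 3 Cip/Kip inhibitors were thus higher in the control mean, and for each of them the highest library was control repeat 1.

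CDKN2B encodes p15, the INK4 inhibitor that TGF-β induces in epithelial cells. It lies on chr9:22002903-22009305, on the minus strand. It had 119, 94.9 and 125 normalized CPM in control repeats 1, 2 and 3 and 109.8, 76.8 and 119 in knockdown repeats 1, 2 and 3. The groups overlapped, and repeat 2 was the lowest library within each group. The log2 fold change was 0.15 with a standard error of 0.2 (adjusted p = 0.717, edgeR's quasi-likelihood test), 0.23 with the FPKM reads of control repeat 2, 0.26 without control repeats 1 and 2, and -0.03 without knockdown repeat 2. Control repeats 1 and 2 did not stand apart for CDKN2B, with control repeat 3 above both.

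CDKN2A encodes p16, and from another start and reading frame the p53 activator ARF, which gene counts do not separate. It lies on chr9:21967752-21995301, on the minus strand, and the antisense lncRNA gene CDKN2B-AS1, which overlaps it and CDKN2B, had 16 to 49 counts. CDKN2A had 359, 335 and 421 normalized CPM in control repeats 1, 2 and 3 and 429, 421 and 395 in knockdown repeats 1, 2 and 3. The lowest libraries were control repeats 1 and 2, and the groups overlapped at control repeat 3. The log2 fold change was -0.16 with a standard error of 0.14 (adjusted p = 0.571, edgeR's quasi-likelihood test). It was -0.26 without control repeat 3, -0.1 without control repeat 2, -0.03 with the FPKM reads of control repeat 2 and -0.01 without control repeats 1 and 2.

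CDKN2D encodes p19 and lies on chr19:10566460-10569059, on the minus strand. It had 16.2, 16.9 and 8.39 normalized CPM in control repeats 1, 2 and 3 and 8.89, 10 and 9.51 in knockdown repeats 1, 2 and 3. As the libraries of highest level, control repeats 1 and 2 stood out as for CDKN1A and CDKN1C, but control repeat 3 was the lowest of all 6 libraries. Its log2 fold change was 0.54 with a standard error of 0.28 (adjusted p = 0.335, edgeR's quasi-likelihood test), 0.8 without control repeat 3, 0.21 with the FPKM reads of control repeat 2 and -0.2 without control repeats 1 and 2.

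CDKN2C encodes p18 and lies on chr1:50960745-50974634, on the plus strand. It had 14.7, 16.2 and 11.5 normalized CPM in control repeats 1, 2 and 3 and 11.3, 14.7 and 21 in knockdown repeats 1, 2 and 3, and the groups overlapped over most of their range. Its log2 fold change was -0.15 with a standard error of 0.26 (adjusted p = 0.791, edgeR's quasi-likelihood test), -0.28 with the FPKM reads of control repeat 2, -0.47 without control repeats 1 and 2, and 0.11 without knockdown repeat 3. None of the 4 INK4 inhibitors had an unadjusted p under 0.05, where 19.2% of all genes tested did, with 2 higher and 2 lower in the control.

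CCND1, the D cyclin that growth factor signalling induces in most epithelial cells, lies on chr11:69641156-69654474, on the plus strand. It had 273, 219 and 428 normalized CPM in control repeats 1, 2 and 3 and 479.8, 502 and 419 in knockdown repeats 1, 2 and 3. Control repeats 1 and 2 were the lowest libraries, and control repeat 3 lay above knockdown repeat 3. The log2 fold change was -0.61 with a standard error of 0.24, and the adjusted p was 0.221 in edgeR's quasi-likelihood test, with an exact permutation p of 0.2. It was -0.93 without control repeat 3 (adjusted p = 0.0137, edgeR), -0.31 with the FPKM reads of control repeat 2, -0.42 without control repeat 2 and -0.15 without control repeats 1 and 2. CCND1 thus differed between the controls in the opposite direction to CDKN1A, CDKN1C and CDKN2D.

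CCND3, the D cyclin best known from lymphocytes and muscle, lies on chr6:41934934-42050357, on the minus strand. It had 71.9, 92.1 and 72.1 normalized CPM in control repeats 1, 2 and 3 and 98.7, 122 and 82.0 in knockdown repeats 1, 2 and 3. The groups overlapped, with knockdown repeat 3 below control repeat 2, and control repeats 1 and 3 were nearly equal. The log2 fold change was -0.36 with a standard error of 0.19 (adjusted p = 0.333, edgeR's quasi-likelihood test). It stayed below 0 under each of the 14 alternatives computed, from -0.51 to -0.2, with -0.46 from the FPKM reads of control repeat 2 and -0.51 without control repeats 1 and 2. CCND2, on chr12:4269771-4305353 on the plus strand, had 0.308, 0.492 and 0.32 normalized CPM in control repeats 1, 2 and 3 and 0.191, 0 and 0.33 in knockdown repeats 1, 2 and 3. Fitted without the filter on low counts, its log2 fold change was 1.05 with a standard error of 0.89 (adjusted p = 0.647, edgeR's quasi-likelihood test), so a difference was not detectable at this depth.

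**Figure D2:**
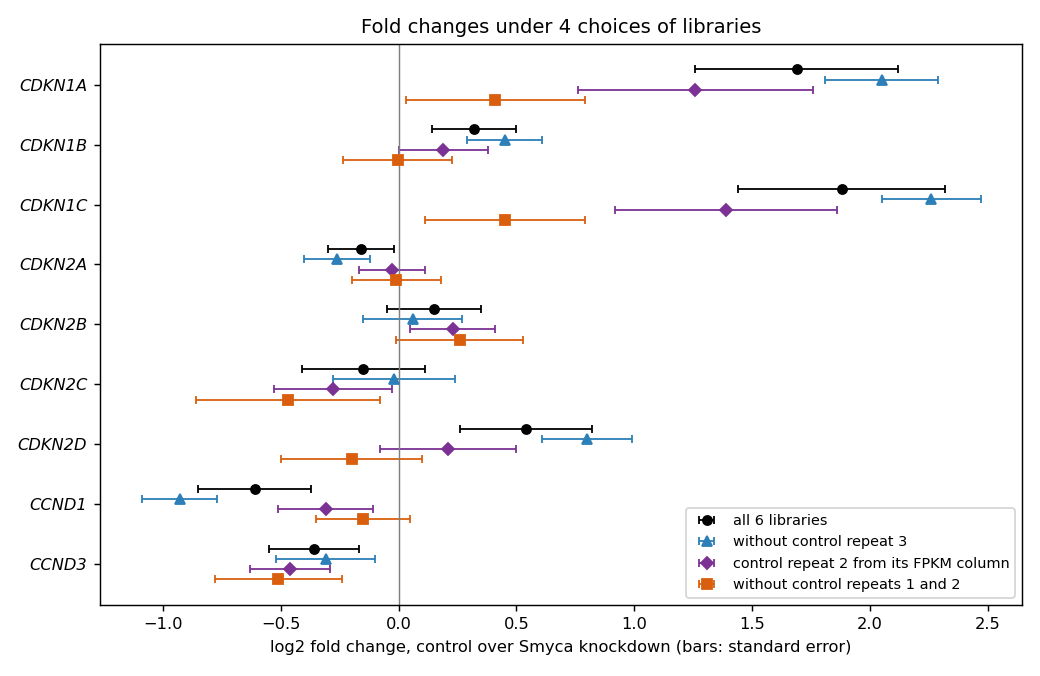
Log2 fold change, control over Smyca knockdown (horizontal axis), of the 9 tested genes with its standard error from edgeR, for all 6 libraries (circles), without control repeat 3 (triangles), with the FPKM reads of control repeat 2 (diamonds) and without control repeats 1 and 2 (squares). For CDKN1A the value goes from 2.05 without control repeat 3 to 0.41 without control repeats 1 and 2, and for CDKN2D from 0.8 to -0.2.

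Levels of different genes were compared as normalized CPM per kilobase of the gene length behind the deposited FPKM. CDKN2A was the highest of the 10 genes, at 424 to 542 normalized CPM per kilobase over the 6 libraries, with a mean level at or above that of 99.4% of the genes with a length. CCND1 followed at 181 to 415, CCND3 at 67.1 to 114 and CDKN2B at 39.5 to 64.0, and no library of one overlapped with the next. CDKN1B, at 42.2 to 68.8, overlapped with CDKN2B. CDKN1C (5.3 to 30.5), CDKN2D (6.69 to 13.4), CDKN1A (3.21 to 18.4) and CDKN2C (5.46 to 10.1) formed a lower tier in which each overlapped with its neighbour in this order, and CCND2 was at most 0.249 normalized CPM per kilobase. The order depended on the length used. By the union of annotated exons, CDKN2A (86.3 to 110.5 normalized CPM per kilobase) overlapped with CCND1 (45.9 to 105), and CDKN2B (19.2 to 31.1) had a higher mean than CCND3 (12.5 to 21.2), with overlap. CDKN1B (5.23 to 8.52) was then in the lower tier.

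In normalized CPM per kilobase, the D cyclins summed to 293, 267 and 421 in control repeats 1, 2 and 3 and 489, 529 and 424 in knockdown repeats 1, 2 and 3, so control repeat 3 lay just below knockdown repeat 3. With the FPKM reads of control repeat 2 that library had 436 beside 423 in knockdown repeat 3, and the groups overlapped. The Cip/Kip inhibitors summed to 118, 104 and 61.6 in the control and 66.8, 50.7 and 53.8 in the knockdown, and control repeat 3 lay below knockdown repeat 1. With the FPKM reads, control repeat 2 had 61.7, which left control repeat 1 as the only high library. The 4 INK4 inhibitors summed to between 494 and 611 in all 6 libraries, and to 636 in the FPKM reads of control repeat 2. In these libraries the INK4 sum exceeded the Cip/Kip sum, and CDKN2A alone made up 84.8% to 90.7% of it, or 67.1% to 77.9% by the union of exons. Of the D cyclins, CCND1 made up 76.3% ± 8.16 of the control sum and 80.5% ± 1.82 of the knockdown sum (SD, n = 3), a difference smaller than the spread of the controls, whose lowest share was 67.7% in control repeat 2. Among the Cip/Kip inhibitors, CDKN1B made up 64.3% ± 11.2 in the control and 82.2% ± 1.69 in the knockdown. Control repeat 3, at 77.2%, lay near the knockdown libraries (80.3% to 83.2%), and control repeats 1 and 2 were at 58.5% and 57.2%. That share depended on the length used, since with the union of annotated exons it was 29.8% ± 11.4 and 50.8% ± 2.84. By that length CDKN1C had the largest mean in the control at 48.8% ± 9.0, but in control repeat 3 it had 38.6%, below CDKN1B at 42.9%.

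**Figure D3:**
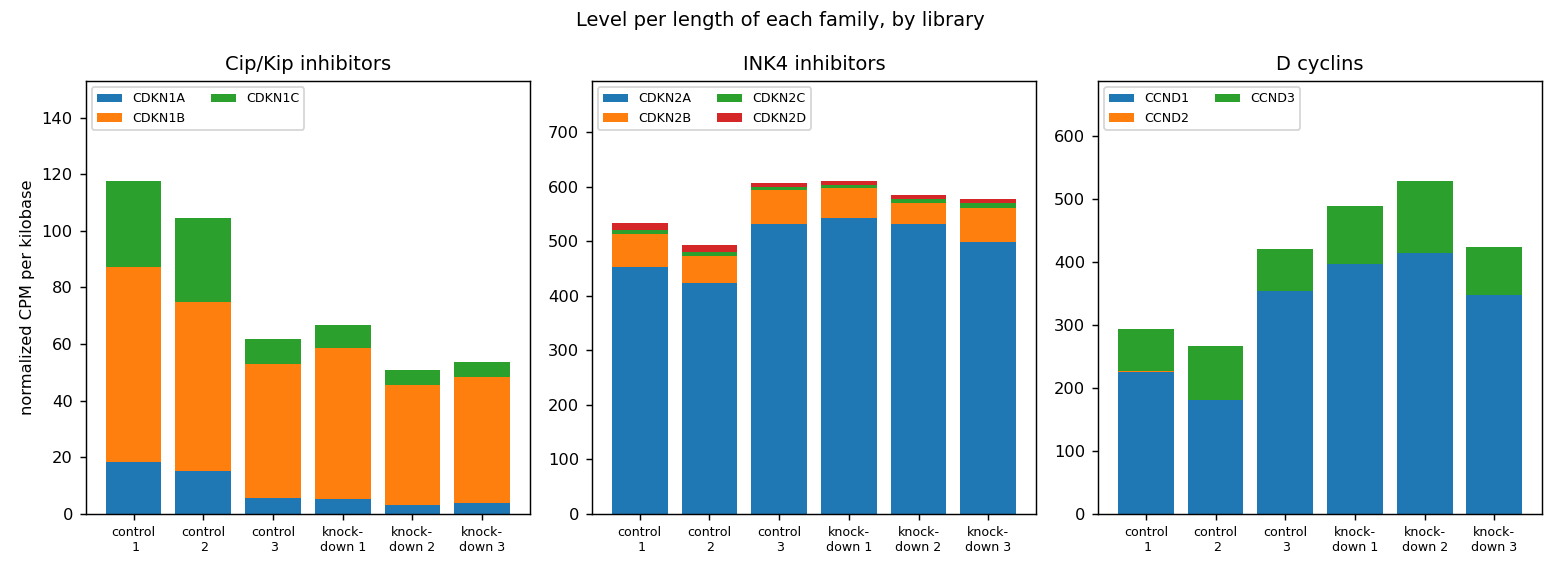
Normalized CPM per kilobase (vertical axis, linear, from 0) of the Cip/Kip inhibitors, the INK4 inhibitors and the D cyclins in each of the 6 libraries, stacked by gene. CDKN2A fills most of the INK4 bars, and the Cip/Kip bars of control repeats 1 and 2, at 118 and 104, are higher than the other 4, which lie between 50.7 and 66.8.

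Since Smad proteins and c-Myc act at the CDKN2B and CDKN1A promoters, the 250 bases upstream of their RefSeq starts are shown (GRCh38.p14, each on its own gene's strand), with matches to any of 3 motifs in capitals on either strand. RefSeq windows were held for 7 of the 10 genes. The motifs were the Smad element CAGAC, the GC box GGGCGG that Sp1 binds, and the E-box CACGTG that c-Myc/Max binds.
CDKN1A, chr6:36678464-36678713, plus strand: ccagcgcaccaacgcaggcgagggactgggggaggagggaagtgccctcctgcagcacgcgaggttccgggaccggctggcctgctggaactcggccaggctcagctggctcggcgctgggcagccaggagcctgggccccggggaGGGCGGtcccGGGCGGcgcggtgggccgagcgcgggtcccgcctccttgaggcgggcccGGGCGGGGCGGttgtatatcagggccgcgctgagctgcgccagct
CDKN2B, chr9:22009306-22009555, minus strand: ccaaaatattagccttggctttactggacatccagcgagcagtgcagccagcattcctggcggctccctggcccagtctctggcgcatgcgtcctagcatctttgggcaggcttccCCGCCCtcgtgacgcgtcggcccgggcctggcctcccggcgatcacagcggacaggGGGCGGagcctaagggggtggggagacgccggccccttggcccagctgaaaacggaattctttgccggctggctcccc
The CDKN1A window held 4 GC boxes, of which the last 2 overlap, and the CDKN2B window held 2, and neither held a Smad element or an E-box of these letters. Among 35116 RefSeq windows of this length, 42.6% held a GC box, 38.0% a Smad element and 6.34% an E-box, so the GC boxes are common and matches farther upstream would not be seen.

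The partners of these genes were described through a list of 41 cell cycle genes, of which 39 were tested. The list had no gene past the study's criteria in edgeR's quasi-likelihood test and 10 at an unadjusted p under 0.05. In DESeq2 it had 3 past the criteria (CDK4, CCNB1 and TFDP1), where 6.16% of the genes with an adjusted p passed. The next counts concern the 10 genes from edgeR. Of these, 2 were higher in the control, beside 10.4% of all genes tested, and 8 were lower, beside 8.74%. That count of 10 was 5 without control repeat 1 or without knockdown repeat 2, and 15 without control repeat 3. The same count over all genes was 2893 of 15075 with every library kept. It was 1730 of 15472 without control repeat 1, 1687 of 15665 without knockdown repeat 2 and 4575 of 15449 without control repeat 3. The list thus moved in the same direction as all genes. In all, 11 were higher and 28 lower in the control, where 53.4% of all genes tested were higher and 46.6% lower, with a median log2 fold change of -0.19 beside 0.04 for all genes tested. CDK4, the kinase that D cyclins activate, had 90.2, 112 and 116 normalized CPM in control repeats 1, 2 and 3 and 156, 185 and 172 in knockdown repeats 1, 2 and 3. The groups did not overlap, and control repeat 3 lay with the other controls, unlike for CDKN1A and CCND1. Its log2 fold change was -0.69 with a standard error of 0.15 (adjusted p = 0.114, edgeR's quasi-likelihood test). CDK6 overlapped, with a log2 fold change of -0.04 and a standard error of 0.2, as did CDK2, the kinase that Cip/Kip proteins block, at 0.19 with a standard error of 0.19.

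Downstream of the D cyclins, 9 of the 10 E2F and DP factors were lower in the control, beside 46.6% of all genes tested, and 3 were lower at an unadjusted p under 0.05, beside 8.74%. The controls differed here too, and over the 10 factors control repeat 1 was 0.536 (E2F2) to 0.945 (E2F7) times control repeat 3. For E2F1 it was 0.578 times, and control repeat 3 (93.2 normalized CPM) lay above knockdown repeat 3 (87.4). TFDP1, the partner that E2F proteins need to bind DNA, had a log2 fold change of -0.59 with a standard error of 0.16 and did not overlap. E2F1 had a log2 fold change of -0.51 with a standard error of 0.22 and overlapped, and E2F7, a repressor of E2F targets, one of 0.4 with a standard error of 0.21. The E cyclins that E2F switches on had log2 fold changes of -0.46 (CCNE1, standard error 0.32) and -0.63 (CCNE2, standard error 0.33), from 39 to 117 counts. RB1 itself had a log2 fold change of -0.21 with a standard error of 0.21. Without control repeat 3, the list genes CDK4, E2F1, E2F2, E2F3 and TFDP1 passed the study's criteria, as did 10.5% of all genes. E2F2, E2F3 and CCNB1 are named here after their values were seen.

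Among genes that act on the stability of these proteins, SKP2, which marks p27 for degradation, had 35.9, 53.4 and 47.9 normalized CPM in control repeats 1, 2 and 3 and 63.4, 81.2 and 63.5 in knockdown repeats 1, 2 and 3. No library overlapped, and the log2 fold change was -0.6 with a standard error of 0.19 (adjusted p = 0.154, edgeR's quasi-likelihood test). DTL, the adaptor of a ligase that removes p21 on replicating DNA, had a log2 fold change of -0.53 with a standard error of 0.16, and FBXW7, which removes cyclin E and c-Myc, one of 0.43 with a standard error of 0.18, and neither overlapped between the groups. SKP2 and DTL were both higher in each knockdown library than in any control library, at the level of mRNA. DTL and FBXW7, like TFDP1 and ZBTB17, were named for a p among the 3 smallest of the list in their direction. That choice favours genes whose groups do not overlap. On the list, 10 of the 39 tested genes did not overlap, beside 24.8% of all genes tested.

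Of the factors that act on these promoters, ZBTB17 had a log2 fold change of 0.4 with a standard error of 0.16 and did not overlap between the groups (adjusted p = 0.233, edgeR's quasi-likelihood test). MYC had 658, 499 and 746 normalized CPM in control repeats 1, 2 and 3 and 755, 685 and 524 in knockdown repeats 1, 2 and 3, which overlapped throughout, with a log2 fold change of -0.05 and a standard error of 0.2. SMAD3 had a log2 fold change of 0.27 with a standard error of 0.23. SMAD4, the shared partner of the receptor-activated Smads, had 9 to 14 counts per library, below 1 normalized CPM in each, and was not tested. The 3 genes MYC, SMAD3 and SMAD4 are named after their values were seen.

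**Figure D4:**
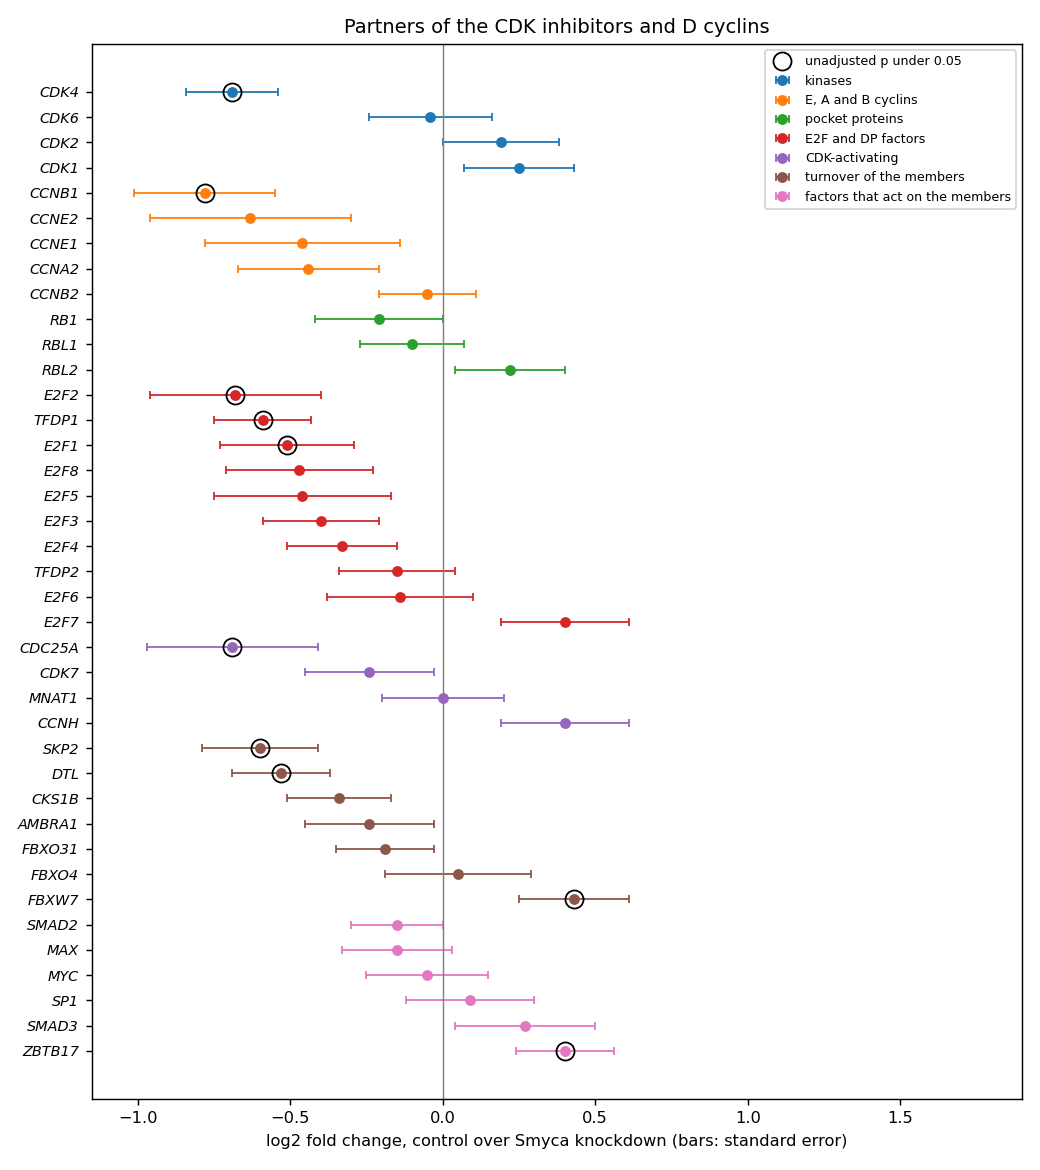
Log2 fold change, control over Smyca knockdown (horizontal axis), with its standard error from edgeR, of the 39 tested genes of the cell cycle list, coloured by role, with a ring around those with an unadjusted p under 0.05. CDK4, TFDP1 and SKP2, at -0.69, -0.59 and -0.6, lie to the left of 0 by more than their standard errors, and CDK6, at -0.04, lies at 0.

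Marker lists of other cell types were summed beside these results, with no test. The summed normalized CPM of the 6 mesenchymal markers was 1361, 1107 and 629 in control repeats 1, 2 and 3 and 654, 726 and 998 in knockdown repeats 1, 2 and 3, so the sums overlapped although all 6 had the higher mean in the control. MSN, which encodes moesin, made up most of the sum in every library and had a log2 fold change of 0.04. VIM, which encodes vimentin, had 148 to 305 normalized CPM in the control and 71.2 to 129.7 in the knockdown (log2 fold change 1.09, adjusted p = 0.131, edgeR's quasi-likelihood test) and did not overlap. ANXA1, an annexin gene, did not overlap either, at 55.6 to 99.1 and 21.7 to 32.1 (log2 fold change 1.51, adjusted p = 0.111, edgeR). The 7 gut markers summed to 229 to 355 in the control and 435 to 514 in the knockdown, most of it from VIL1, which encodes the microvillus protein villin (220.5 to 343 and 422 to 501). Of the other gut markers, CDX2 and CDH17 overlapped between the groups, and LGALS4 was lower in the knockdown, at 0.33 to 0.698 against 1.05 to 1.34. CDX1 had 0 counts in every library, and GPA33 and KRT20 had at most 6. The 9 epithelial markers summed to 7361 to 8704 in the control and 7919 to 10678 in the knockdown, which overlapped, with most of the sum from the keratin KRT8. Of the 9, 6 had the higher mean in the control. CDH1, which encodes E-cadherin, was among these 6 and overlapped (71.5 to 300.1 in the control and 77.6 to 172 in the knockdown). Of the 9 epithelial markers, 3 did not overlap between the groups, beside 24.8% of all genes tested. Like VIM, ANXA1, MSN and CDH1, these 3 are named after their values were seen. KRT8 (4249 to 4775 in the control and 5083 to 7408 in the knockdown) and the splicing factor ESRP1 (128 to 139 and 141 to 188) were higher in the knockdown, and the tight junction gene CLDN4 (208 to 265 and 144 to 184) was higher in the control, and none of these 3 passed the study's criteria. In bulk RNA, fewer cells of a type and less RNA per cell cannot be told apart, and the part of these differences in the values of CDKN1A, CDKN1C and CCND1 was not tested.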

How the data were processed

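The 6 libraries comprised 3 control shRNA and 3 Smyca shRNA #1 repeats, grouped by their labels. The authors removed rRNA, made strand-specific paired-end libraries, aligned them to hg38 with TopHat2 2.0.12 and counted reads per gene with HTSeq. The annotation release and strand setting are not given in the sources used here. The authors deposited raw counts and FPKM per gene, and the counts were tested. FPKM served to recover gene lengths and the reads behind control repeat 2, of which 100% of 23593 genes came out whole within 0.05.

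Symbols came from GENCODE 44 (57532 IDs matched). Counts were fitted in R 4.3.3 with edgeR 4.0.16 (TMM, filterByExpr, quasi-likelihood test, Benjamini-Hochberg adjustment), after a test on simulated data. The study used DESeq, in whose place DESeq2 1.42.0 was an alternative. Other alternatives were other normalizations and filters, a repeat block, each repeat left out, other thresholds, the FPKM reads of control repeat 2 and, chosen after seeing the data, leaving out control repeats 1 and 2. The 10 genes and the lists were chosen with earlier results of these data known. All 10 genes were named, with 8 fixed list genes, the 3 list genes of smallest p in each direction, the 9p21 neighbours, MIR23AHG and, for CDKN1A and CCND1, the 3 genes of nearest pattern. Counts limit precision through counting error, which is largest for CCND2. RefSeq sequences are of GRCh38.p14. The result of 1 marker gene, and the list sum that holds it, are not reported here.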

Additional observations from a re-analysis of the deposited data

Results flagged for a closer look

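Reads recovered from the FPKM of control repeat 2, which enter no comparison of the deposited counts, gave CDKN2A 446 normalized CPM, above the 421 of the highest control count library. The same reads gave CCND1 439 normalized CPM, above the 428 of the highest control count library, control repeat 3. For both genes, the deposited counts of control repeat 2 gave the lowest value of the 6 libraries, 335 for CDKN2A and 219 for CCND1. No test was made of either difference.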

How the results depend on the processing

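The count of members past the study's criteria, 0 in edgeR's quasi-likelihood test, was 2 without the filter on low counts, 2 with DESeq2, 3 by the ratio alone (21.2% of all genes) and 3 by an unadjusted p alone (19.2%), and 0 to 4 when each repeat was left out. The 4 came without control repeat 3. The count over all genes, 4 of 15075, was 8 with total counts, 916 without the filter, 870 with DESeq2, 0 with the repeat block, 10 with the FPKM reads of control repeat 2, and 0 to 1628 when each repeat was left out, the last without control repeat 3. The count on the cell cycle list, 0, was 2 without the filter, 3 with DESeq2 and 0 to 5 when each repeat was left out. The median log2 fold change of the members ran from -0.028 (without knockdown repeat 2) to 0.264.

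Without control repeats 1 and 2 the sign turned for CDKN1B (-0.0047) and CDKN2D (-0.2), without knockdown repeat 2 for CDKN2B (-0.03), and without knockdown repeat 3 for CDKN2C (0.11). Over each repeat left out, CDKN2B ran from -0.03 to 0.26 and CDKN2C from -0.34 to 0.11. The cause was not tested. CDKN1A stayed between 0.41 and 2.05 over 14 alternatives (adjusted p from 0.00196 to 0.642), CDKN1C between 0.45 and 2.26 (0.000181 to 0.567) and CCND1 between -0.93 and -0.15 (0.0137 to 0.75). The mean CCND1 share of the D cyclins was 78.4% by the deposited lengths and 83.1% by the union of exons.

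Libraries with the same repeat number deviated together only weakly (r = 0.0536, 0.0938 and 0.0207). Deviations from a group mean depend on one another, so these values cannot tell whether libraries of the same number were handled together. With the repeat block, 0 members passed and 3 had an unadjusted p under 0.05 (17.0% of all genes). Not every library correlated best with its own number. The standard error was 0.43 for CDKN1A and 0.24 for CCND1, and without control repeat 3 it was 0.24 for CDKN1A and 0.16 for CCND1. At 0 to 8 counts a difference in CCND2 was not detectable at this depth.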

Other observations

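The genes whose pattern over the 6 libraries was nearest to that of CDKN1A, by the root mean square difference of log2(CPM + 1) deviations from each gene's mean among 10945 genes with a mean of at least 5 normalized CPM, were TMEM74B (0.097), CAPN5 (0.126) and NAGS (0.142), where the deviations of CDKN1A itself had a root mean square of 0.88. CAPN5, a calpain protease, had 34.9, 32.4 and 9.93 normalized CPM in control repeats 1, 2 and 3 and 10.1, 7.22 and 9.18 in knockdown repeats 1, 2 and 3. Nearest to CCND1 were ZNF696 (0.0782), KLHL21 (0.0917) and PMF1 (0.106), beside a root mean square of 0.442 for CCND1. KLHL21, an adaptor of a ubiquitin ligase in mitosis, had 113, 88.7 and 150 normalized CPM in the control repeats and 171, 201 and 159.6 in the knockdown repeats. These 6 genes were chosen for that likeness, so their patterns are a description only.

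Along 9p21, the genes beside CDKN2A and CDKN2B differed in how they varied. KLHL9 (393 to 641 counts), FOCAD (475 to 714), CAAP1 (376 to 516), PLAA (504 to 686) and IFT74 (141 to 221) were present in every library. ELAVL2, which encodes a neuronal RNA-binding protein, ranged from 19 to 166 counts, with the lowest value of each group in repeat 3. MLLT3 had 262, 222 and 94 counts in the control repeats and 75, 114 and 181 in the knockdown repeats. DMRTA1, the nearest coding neighbour beyond CDKN2B, had 166, 119 and 118 counts in the control and 70, 35 and 84 in the knockdown, so its groups did not overlap while those of CDKN2B did, with a log2 fold change of 1.04 and a standard error of 0.36 (adjusted p = 0.178, edgeR's quasi-likelihood test). TUSC1 had 1 count in 1 library.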
